A study of Mus musculus with 16 samples.

Results

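Endothelial cells in B78 melanoma tumors were the 643 cells, of 163343 in all, to which the authors' deposited annotation gave that class name. All 643 lay in 1 of the 39 numbered clusters, cluster 31, and that cluster held no cell of another class. Whole tumors were dissociated into single cells and sequenced as droplet libraries, in which each RNA molecule is counted by a unique molecular identifier (UMI). B78 is a mouse melanoma line without pigment, and the cells were injected under the skin of male C57/BL6 mice of 8 to 11 weeks. The mutant cells carried an edited stop codon in Mt-Nd5, the mitochondrial gene of a core subunit of respiratory complex I, at position 11944 or 12436. The number after the position is the heteroplasmy, the percent of mitochondrial genomes that carried the edit in the injected cells.

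The 16 tumors were 3 of mt.11944 60%, 3 of mt.12436 60%, 3 of mt.12436 80% and 7 of wild-type (WT) B78 cells, and each tumor gave 6371 to 13448 cells. The edit was made in the injected line, whereas the mice were of 1 strain with no edit of their own. Tumors of a mutant group grew from an edited cell population, so variation among separate edits was not sampled. The table that was used names 3 batches without saying what a batch was. The first held mt.11944 60% and WT 1 to 3, the second mt.12436 60% and WT 4, 5 and 7, and the third mt.12436 80% and WT 6. Any difference between the 80% and the 60% tumors was therefore also one between batches, and these cannot be told apart.

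Endothelial cells line blood and lymphatic vessels, and they bring oxygen and nutrients to a tumor and give leukocytes their way into it. They are known by Cdh5, the cadherin of their junctions, and Pecam1, an adhesion molecule at their borders. In a subcutaneous graft the vessels grow in from the host. The table holds measures per cell and no expression of single genes, so the class name was not checked against Pecam1 and Cdh5. Of the 643 cells, 24 (3.73%) carried a cell barcode that another library also held, against 4.04% of all cells, and none of the 24 shared it with another endothelial cell.

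Endothelial cells were rare among the cells recovered from every tumor, and their share varied as much among WT tumors as across all groups. How well dissociation and sorting recovered each class was not measured, so a share is not an amount of vessels in the tumor. They made up 0.394% of all cells and 0.630% of the 102026 non-malignant cells, meaning every class other than the cancer cells, and 11 of the 15 classes were larger. The mt.11944 60% tumors held 72, 42 and 33 endothelial cells, the mt.12436 60% tumors 27, 56 and 63, and the mt.12436 80% tumors 25, 25 and 35. The WT tumors held a lowest number of 12, a median of 43 and a highest of 59. Few cells in a tumor therefore stood behind each value that follows.

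As a percent of all cells, the share was 0.559, 0.312 and 0.356 in mt.11944 60% tumors and 0.258, 0.464 and 0.591 in mt.12436 60% tumors. It was 0.235, 0.241 and 0.331 in mt.12436 80% tumors, and in WT tumors it ran from 0.109 over a median of 0.476 to 0.879. The 9 mutant tumors all lay inside the WT range, whose ends were WT 5 and WT 4, both of the second batch. The 95% Clopper-Pearson interval, which covers counting error only, was 0.665 to 1.14% for WT 4 and 0.0564 to 0.191% for WT 5. The variance of the share among the 16 tumors was 7.89 times what counting alone would give, and among the WT tumors it was 11.6 times that value.

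**Figure D1:**
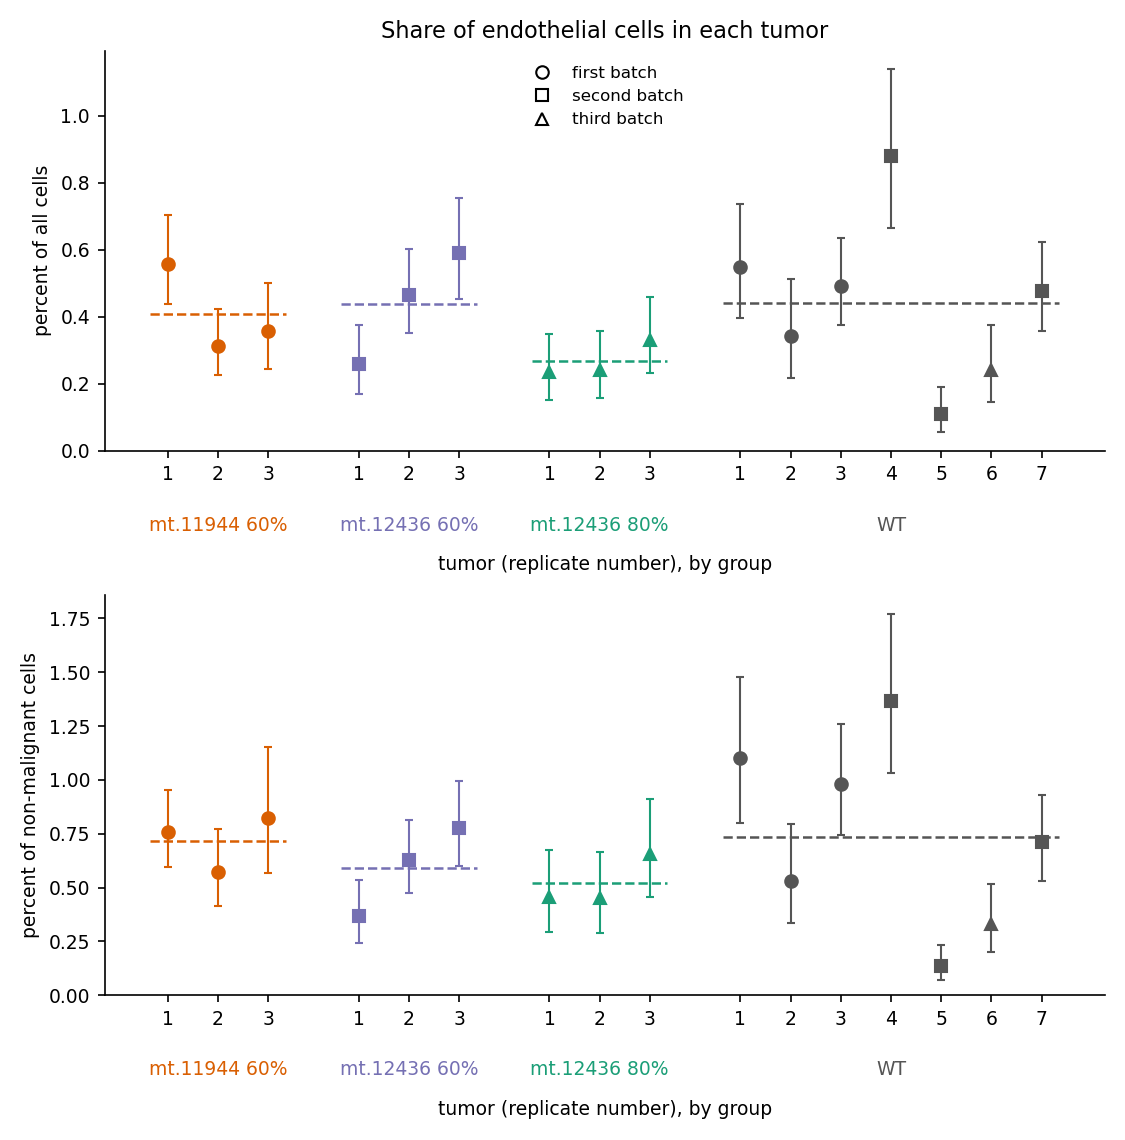
Endothelial cells in each tumor as a percent of all cells (upper panel) and of non-malignant cells (lower panel), with 95% Clopper-Pearson intervals, the group mean as a dashed line and the batch as the symbol. The mt.12436 80% tumors lie between 0.235 and 0.331% of all cells, and the WT tumors WT 4 at 0.879% and WT 5 at 0.109% lie above and below every mutant tumor.

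The first question was whether tumors with the edit held another share of endothelial cells. The share was 0.372% ± 0.135 (SD, n = 9) in all mutant tumors and 0.441% ± 0.247 (n = 7) in WT tumors, a ratio of 0.844. An exact two-sided permutation test over tumors gave p = 0.5002, adjusted p = 0.714 by the Benjamini-Hochberg method over the 15 classes. The 95% interval ran from -0.275 to 0.130 percentage points. Under that test 0.0% of the 15 classes passed the adjusted threshold of 0.05, so the absence of a call was shared with the other classes. Within batches the difference was -0.0350 percentage points (exact permutation p = 0.739).

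The 60% tumors averaged 0.423% ± 0.136 (n = 6), 0.960 times the WT mean (exact permutation p = 0.886). The mt.12436 80% tumors averaged 0.269% ± 0.0537 (n = 3), 0.611 times the WT mean, and this missed the threshold (exact permutation p = 0.275, adjusted p = 0.425, interval from -0.548 to 0.154 percentage points). The 1 WT tumor of their own batch, WT 6, was at 0.241%, and against it alone the 80% tumors were 0.0284 percentage points higher (exact permutation p = 0.75, where 4 splits allow no p under 0.25). Against the 60% tumors the 80% tumors had 0.636 times the share (exact permutation p = 0.0952, adjusted p = 0.286), and 2 of the 3 lay below every 60% tumor. Without the aneuploid-called cells outside the cancer class this ratio was 0.331 (exact permutation p = 0.0238, adjusted p = 0.268) and that against WT 0.399 (exact permutation p = 0.0667, adjusted p = 0.179). In each of these comparisons 0.0% of the 15 classes passed after adjustment.

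The mutations were then set against each other at the same heteroplasmy. The share was 0.437% ± 0.168 in mt.12436 60% tumors and 0.409% ± 0.131 in mt.11944 60% tumors (n = 3 each, exact permutation p = 0.9, where 0.1 is the smallest p that 3 against 3 tumors can give). Against the WT tumors of its own batch, mt.12436 60% differed by -0.0506 percentage points and mt.11944 60% by -0.0511 (exact permutation p of the difference between these effects 0.995). The mt.12436 60% value turned to 0.145 without WT 4 and was -0.240 without WT 5, so its sign rested on WT 4, and that of mt.11944 60% ran from -0.111 to -0.00778 with its WT tumors left out in turn.

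Among non-malignant cells alone, which takes out the cancer cell share, the comparisons again passed no adjusted test. Endothelial cells were 0.610% ± 0.161 of these in mutant tumors (n = 9) and 0.736% ± 0.440 in WT tumors (n = 7), with an exact permutation p of 0.441. The mt.12436 80% tumors stood at 0.457, 0.450 and 0.655% (mean 0.521% ± 0.117), below the WT mean and inside the WT range of 0.135 to 1.37% (exact permutation p = 0.45). The 60% tumors averaged 0.655% ± 0.169 (n = 6), with p = 0.674 against WT and p = 0.25 for the 80% against the 60% tumors, both by exact permutation. The 80% share was 0.795 times the 60% share, and 0.418 times without aneuploid-called cells (exact permutation p = 0.0238, adjusted p = 0.167). Against WT it was 0.707 times, and 0.456 times without aneuploid-called cells (exact permutation p = 0.183). Under this denominator 0.0% of the 14 non-malignant classes passed after adjustment in any of the 5 comparisons. For mt.12436 60% against mt.11944 60% none could, since 0.1 is the smallest p that 3 against 3 tumors can give. A quasi-likelihood fit of the class counts in edgeR kept the cancer cells and so did not use this denominator. It called no difference for endothelial cells either.

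By label, fibroblasts are the other stromal class of the table. By the ploidy calls described below, 29.1% of them were called aneuploid. That percent ran from 0.926 in mt.11944 60% 1 to 83.5 in mt.12436 80% 3. Whether malignant cells lay among them was not tested, which limits the ratio. There were 3.70, 14 and 15.2 endothelial cells per 100 fibroblast-labelled cells in mt.11944 60% tumors and 14.5, 24.8 and 11.0 in mt.12436 60% tumors. The ratio was 10.8, 14.4 and 14.8 in mt.12436 80% tumors, and 4.00 to 19.3 with a median of 14.3 in WT tumors. The groups overlapped, with mt.11944 60% 1, WT 5 and WT 2 (6.46) at the low end.

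Across the 16 tumors the endothelial share of non-malignant cells was set against the share of each of the 14 other classes, and 0 relations passed after adjustment. By rank the closest was with fibroblast-labelled cells, whereas by Pearson r mast cells, erythroid cells, monocytes and macrophages lay farther from 0 (fibroblast-labelled cells: Spearman rho 0.694, permutation p = 0.00387, adjusted p = 0.0542, Pearson r 0.371, permutation p = 0.159, adjusted p = 0.396). Without the tumors farthest from the median fibroblast share, mt.11944 60% 1 and WT 2, Pearson r was 0.845. Pearson r was -0.0135 in the 6 tumors of the first batch and 0.762 in the 6 of the second. Both tumors left out above were of the first batch, and no first-batch value was computed without them. With them kept, the relation did not hold within both batches. The third batch had too few tumors for a value. With mast cells rho was 0.618 (permutation p = 0.0124, adjusted p = 0.0867), Pearson r 0.552 (permutation p = 0.0259, adjusted p = 0.362), r 0.688 without mt.11944 60% 1 and mt.12436 60% 2, and r -0.0993 in the first and 0.633 in the second batch.

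The median endothelial cell had fewer UMIs than the median cell of its own tumor in 12 of 16 tumors, and as a group mean its depth was lowest in mt.12436 80% tumors. Over all tumors pooled, the median was 3876 UMIs, with quartiles of 1856.5 and 7206, and 1938 genes per cell. Pooled medians of both ranked second of 15 classes after the cancer cells, but as a mean over tumors the endothelial median of 3840 UMIs lay below that of fibroblast-labelled cells (4312) and macrophages (4294). Median UMIs per endothelial cell were 3705, 3809 and 4727 in mt.11944 60% tumors and 5813, 4231.5 and 3394 in mt.12436 60% tumors. They were 2201, 3263 and 1670 in mt.12436 80% tumors, and ran from 2015 over a median of 3855 to 8026.5 in WT tumors. WT 4 and mt.12436 60% 1 were the deepest, and mt.12436 80% 3 the shallowest.

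Median genes per endothelial cell were 2032.5, 1890.5 and 2430 in mt.11944 60% tumors and 2583, 2073.5 and 1901 in mt.12436 60% tumors. The medians were 1385, 1761 and 953 in mt.12436 80% tumors, and 1326 to 3129.5 with a median of 2060 in WT tumors. The 3 tumors of mt.12436 80% lay below every 60% tumor for both measures. Against the WT tumors, mt.12436 80% 3 lay below all 7 and the other two lay inside their range for both measures. Cells with under 1000 genes made up 54.3% of endothelial cells in mt.12436 80% 3, 43.5% in WT 2 and 37.5% in mt.11944 60% 1, against 5.26 to 28.0% in the other 13 tumors.

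**Figure D2:**
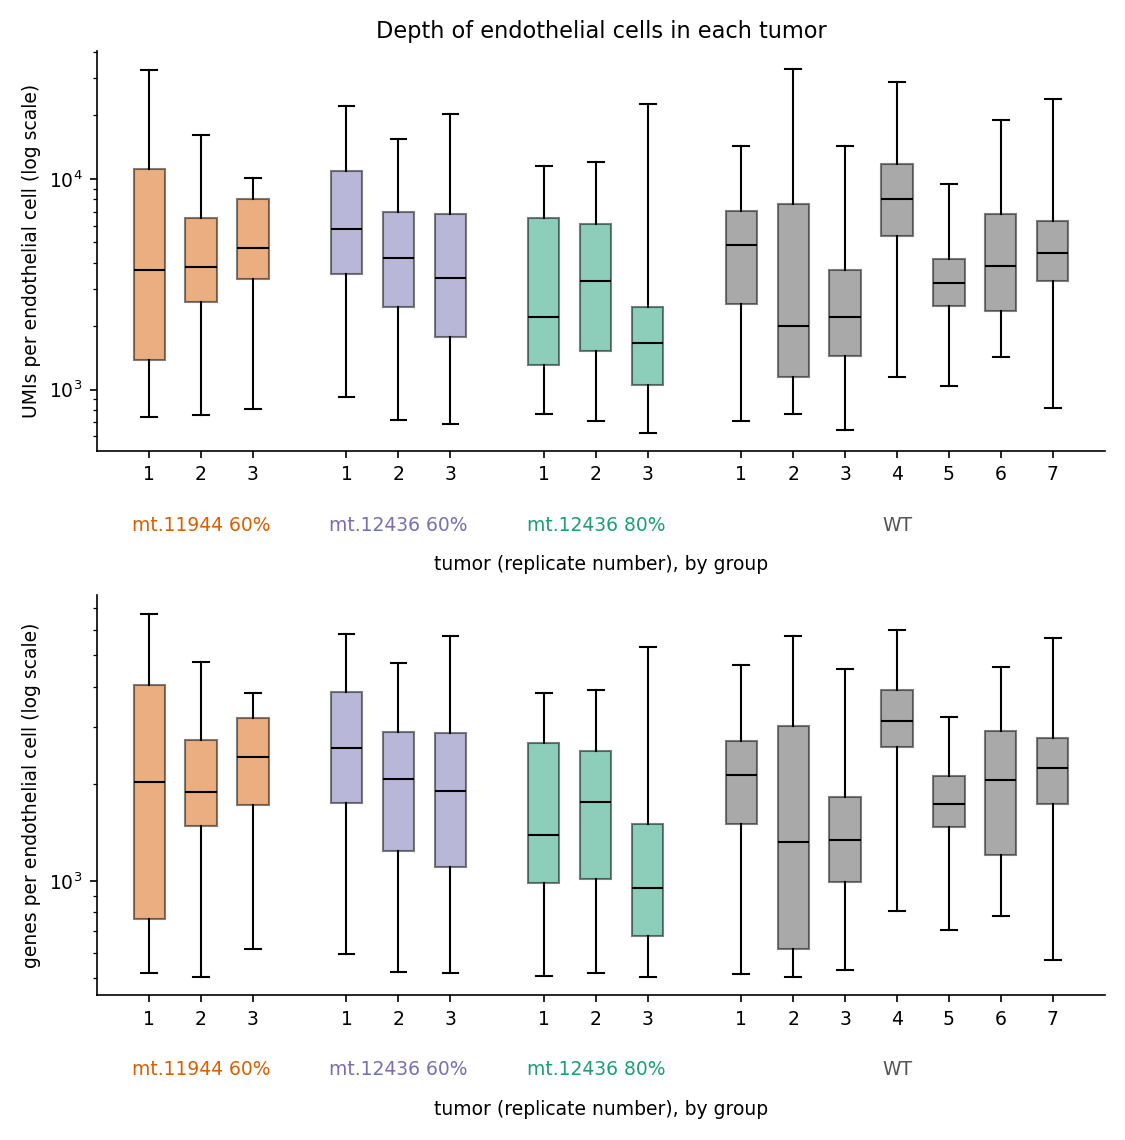
UMIs (upper panel) and genes (lower panel) per endothelial cell in each tumor, both on a log scale. Boxes give the quartiles with the median as a line and whiskers the lowest and highest cell. The medians of the mt.12436 80% tumors, 2201, 3263 and 1670 UMIs, lie below those of the 60% tumors, and WT medians run from 2015 to 8026.5.

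Median UMIs were 2378 ± 811 in 80% tumors (n = 3) and 4280 ± 882 in 60% tumors (n = 6), a difference of -1902 with an interval of -3409 to -447 (exact permutation p = 0.0238, adjusted p = 0.286 over 12 classes). Median genes were 1366 ± 404 in 80% tumors and 2152 ± 288 in 60% tumors (exact permutation p = 0.0119, the smallest that 84 splits allow, adjusted p = 0.143). Neither passed after adjustment, which a class alone at the smallest p could not do over 12 classes. Against WT tumors the 80% tumors missed the unadjusted threshold too (exact permutation p = 0.217 for UMIs and 0.167 for genes). Mean UMIs were also lower in 80% than in 60% tumors in the other classes tested, except in fibroblast-labelled cells. Relative to the median cell of the same tumor, endothelial cells had 0.363, 0.837 and 0.369 times its UMIs in mt.12436 80% tumors. The ratio was 0.540, 0.914 and 0.628 in mt.11944 60% tumors, 1.19, 1.35 and 0.999 in mt.12436 60% tumors, and 0.470 to 1.27 in WT tumors.

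CopyKAT, which infers gains and losses of chromosome segments from expression, had called each cell aneuploid or diploid. Normal endothelial cells are as a rule diploid as background biology. Whether those in these tumors were diploid was not measured apart from this call. Of the 643 endothelial cells, 108 (16.8%) were called aneuploid, the third highest share of 15 classes after cancer cells (98.4%) and fibroblast-labelled cells (29.1%). Erythroid cells followed at 14.4% and mast cells at 4.66%, and the other 10 classes were below 0.5%. T and NK cells had been set as the diploid reference of the caller, so their low shares are no comparison. Endothelial cells were 4.73% of the 2282 aneuploid-called cells outside the cancer cell class.

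These calls were concentrated in 4 tumors. The percent of endothelial cells called aneuploid was 32.0, 52.0 and 62.9 in mt.12436 80% tumors and 73.2 in WT 4. It was 4.17, 16.7 and 0 in mt.11944 60% tumors, 0, 3.57 and 1.59 in mt.12436 60% tumors, and 2.33, 8.70, 10.2, 0, 5.26 and 1.89 in WT 1, 2, 3, 5, 6 and 7. In counts this was 8 of 25, 13 of 25 and 22 of 35 cells in the 80% tumors and 41 of 56 in WT 4. The exact 95% interval was 14.9 to 53.5% in mt.12436 80% 1, the lowest of the 4. The highest upper bound among tumors at or under 10.2% was 28.0% in WT 2, so these intervals overlapped. The lower bounds of mt.12436 80% 2, mt.12436 80% 3 and WT 4 were 31.3, 44.9 and 59.7%, all above 28.0%. In mt.11944 60% 2, at 16.7%, the upper bound was 31.4%. The variance of the aneuploid percent was 17.8 times what counting alone would give over all tumors and 21.9 times among WT tumors. For the tumors with 0 calls, a count of 0 allowed up to 10.6% in mt.11944 60% 3, 12.8% in mt.12436 60% 1 and 26.5% in WT 5, as the upper exact bound.

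**Figure D3:**
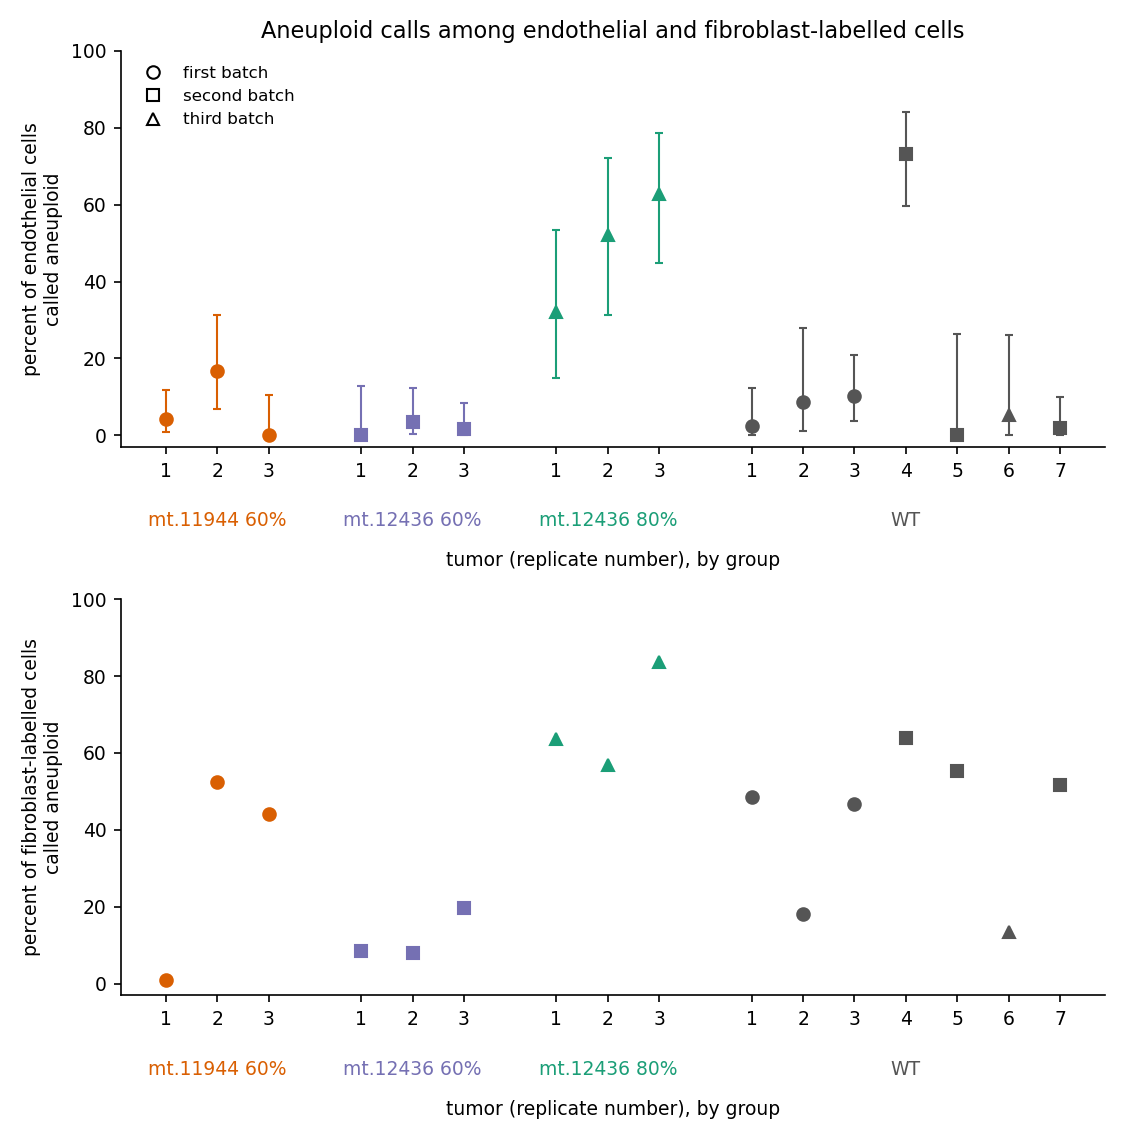
Percent of endothelial cells (upper panel, with 95% Clopper-Pearson intervals) and of fibroblast-labelled cells (lower panel) that CopyKAT called aneuploid in each tumor, with the batch as the symbol. Endothelial cells stand at 32.0, 52.0 and 62.9% in mt.12436 80% tumors and 73.2% in WT 4, and at or under 16.7% in the other 12 tumors.

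The mean was 49.0% ± 15.7 in 80% tumors (n = 3) and 4.33% ± 6.29 in 60% tumors (n = 6), a difference of 44.6 percentage points with an interval of 30.5 to 59.2. All 3 lay above all 6, the exact permutation p was 0.0119, the smallest possible, and the adjusted p of 0.143 missed the threshold. After adjustment over 12 classes, a class alone at that smallest p could not pass, so the miss does not speak against a difference. The same full separation was seen in 16.7% of the 12 classes, the other class being the fibroblast-labelled cells at 68.03% ± 13.9 in 80% tumors and 22.3% ± 21.2 in 60% tumors. Batch and heteroplasmy cannot be told apart in this pair.

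Against WT tumors, at 14.5% ± 26.1 (n = 7), the 80% tumors were 34.4 percentage points higher (exact permutation p = 0.0333, adjusted p = 0.214) with 0 of the 12 classes fully separated (0.0%), and WT 4 lay above all 3. WT 6, the 1 WT tumor of their batch, was at 5.26%, or 1 of 19 cells. Over all mutant tumors the mean was 19.2% ± 24.2 (n = 9) and did not stand apart from WT (exact permutation p = 0.730). Without WT 4 the mutant tumors exceeded the WT tumors by 14.5 percentage points, against 4.70 with it.

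In fibroblast-labelled cells of the same tumors the aneuploid percent was 63.6, 56.9 and 83.5 in mt.12436 80% tumors, 63.8 in WT 4 and 13.5 in WT 6. It was 0.926, 52.3 and 44.2 in mt.11944 60% tumors and 8.60, 7.96 and 19.8 in mt.12436 60% tumors. WT 5 and WT 7, with 55.3 and 51.6% in fibroblast-labelled cells, had 0 and 1.89% in endothelial cells. A high fibroblast value was thus not matched by a high endothelial value in every tumor.

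There were 6 tumors that held at least 5 endothelial cells of each call: the 3 mt.12436 80% tumors, mt.11944 60% 2, WT 3 and WT 4. This set was chosen after the values were seen and is described without a test. In each of the 6, aneuploid-called cells had more UMIs, more genes and a higher doublet score than diploid-called cells. In WT 4 the median was 3568 genes in 41 aneuploid-called and 1361 in 15 diploid-called cells, and in mt.12436 80% 3 it was 1277 in 22 aneuploid-called and 633 in 13 diploid-called cells. The epithelial score was higher in 4 of the 6, the percent in S or G2M phase in 5 and the mitochondrial percent in 3. The part of depth or of mixed droplets in these calls was not tested.

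**Figure D4:**
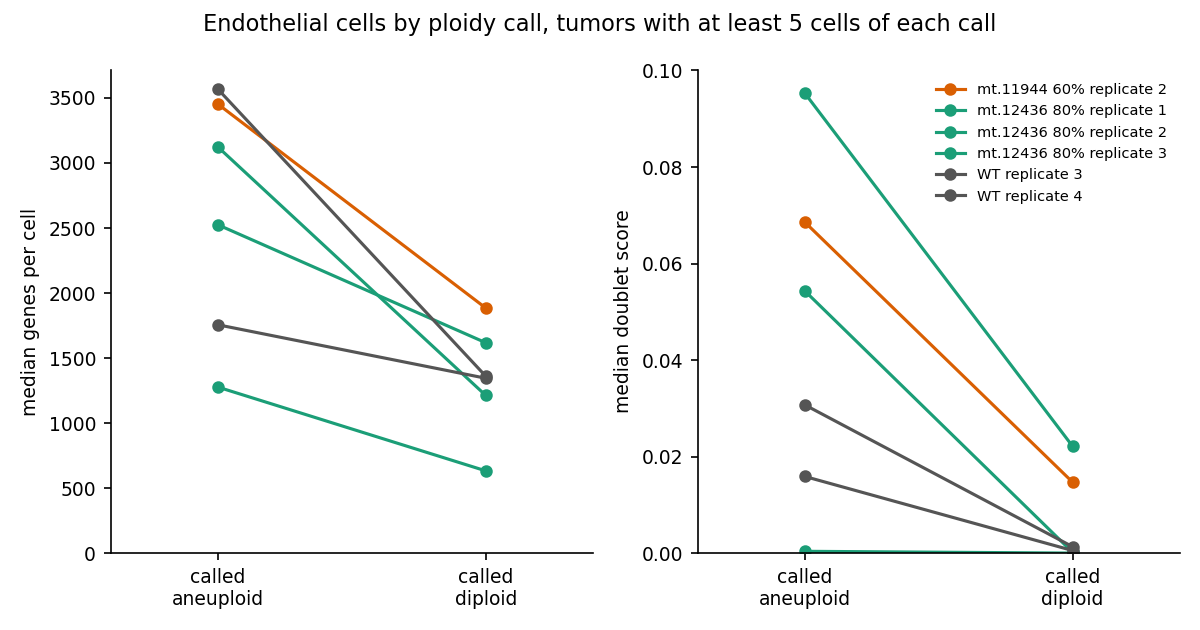
Median genes per cell (left) and median doublet score (right) of endothelial cells called aneuploid and called diploid, in the 6 tumors with at least 5 cells of each call. Lines join the values of 1 tumor, and in all 6 the aneuploid-called cells are higher, for example 3568 against 1361 genes in WT 4.

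Pooled over tumors, the calls also went with gene number. Of the 138 endothelial cells with under 1000 genes, 8.70% were called aneuploid, of the 192 from 1000 to under 2000 genes 9.38%, of the 159 from 2000 to under 3000 genes 16.4%, and of the 154 with 3000 or more genes 33.8%. Across tumors the calls did not follow genes in 1 direction. The mt.12436 80% tumors had fewer genes per endothelial cell than the 60% tumors and more aneuploid calls, whereas WT 4 had the most genes and the highest percent of calls.

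The doublet score, from scDblFinder, estimates from 0 to 1 how much a barcode resembles a mixture of a pair of cells, and no deposited cell was called a doublet. It exceeded 0.1 in 127 endothelial cells (19.8%), against 16.4% of cancer cells and 14.8% of macrophages. That share was 0 below 1000 genes, 9.38% from 1000 genes, 32.1% from 2000 and 37.7% from 3000. By tumor it ran from 6.06% in mt.11944 60% 3 to 42.1% in WT 6, 8 of whose 19 endothelial cells were above 0.1.

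The epithelial score is the authors' average over cytokeratin genes, Epcam and Sfn, used to mark the melanoma cells. It was above 0 in 165 endothelial cells (25.7%) at a median depth of 3876 UMIs. It was above 0 in 19.5% of macrophages (3833 UMIs), 20.9% of monocytes (2834 UMIs), 25.04% of dendritic cells (3449.5 UMIs) and 13.5% of NK cells (2245 UMIs), immune classes that as background do not make keratins. The endothelial share was near that of dendritic cells, above that of macrophages at nearly the same depth, and far below the 81.7% of cancer cells. By gene number it was 13.8, 18.8, 23.9 and 46.8% from the shallowest to the deepest of the 4 bins. Mean scores per tumor were 0.763 to 2.53 in mt.12436 80% tumors, 0.953 to 1.59 in mt.12436 60%, 1.22 to 1.52 in mt.11944 60% and 0.295 to 2.56 in WT tumors, and these ranges overlapped.

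By the authors' phase calls, 403 endothelial cells (62.7%) were in G1, 127 (19.8%) in S and 113 (17.6%) in G2M. Such calls rest on relative scores and do not by themselves show division. The percent in S or G2M was 47.2, 33.3 and 21.2 in mt.11944 60% tumors, 59.3, 41.1 and 27.0 in mt.12436 60% tumors and 24.0, 56.0 and 34.3 in mt.12436 80% tumors. In WT tumors it ran from 8.33 over a median of 33.96 to 65.2. The groups overlapped fully, at 38.2% ± 13.7 in mutant (n = 9) and 34.6% ± 17.1 in WT tumors (n = 7, exact permutation p = 0.652). Both ends of the gene number held many such calls, 50% of cells under 1000 genes and 47.4% from 3000, against 31.3 and 23.9% in between.

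Of a cell's UMIs, a median of 0.912% came from mitochondrial genes, 12.4% from ribosomal genes and 3.06% from genes that respond to tissue dissociation. The mitochondrial percent by tumor was 0.887, 0.839 and 0.959 in mt.11944 60%, 0.934, 0.961 and 0.864 in mt.12436 60% and 1.19, 0.783 and 0.551 in mt.12436 80% tumors. In WT tumors it ran from 0.806 over a median of 0.951 to 2.14, the last in WT 5 with its 12 cells. It averaged 0.885% ± 0.169 in mutant (n = 9) and 1.13% ± 0.459 in WT tumors (n = 7, exact permutation p = 0.133). In 80% tumors it was 0.840% ± 0.322 (n = 3), with an exact permutation p of 0.4 against WT and 0.560 against 60% tumors.

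The ribosomal percent was 14.2, 14.3 and 11.0 in mt.11944 60%, 12.6, 12.0 and 9.90 in mt.12436 60% and 9.59, 14.9 and 17.1 in mt.12436 80% tumors. WT tumors ran from 5.83 in WT 5 over a median of 11.9 to 16.5 in WT 2. The mean was 12.8% ± 2.48 in mutant and 12.4% ± 3.41 in WT tumors (n = 9 and 7, exact permutation p = 0.769), a difference well inside the spread.

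The dissociation percent was the one endothelial measure with an unadjusted p under 0.05 over all mutant tumors. It was 3.14, 3.13 and 2.90 in mt.11944 60%, 3.63, 3.01 and 3.10 in mt.12436 60% and 3.56, 3.30 and 3.09 in mt.12436 80% tumors. In WT tumors it ran from 2.73 over a median of 2.93 to 3.14, and 3 of the 9 mutant tumors lay above every WT tumor. The mean was 3.21% ± 0.244 in mutant and 2.93% ± 0.130 in WT tumors, a difference of 0.276 percentage points with an interval of 0.0576 to 0.497 (exact permutation p = 0.0135, adjusted p = 0.162). The call missed the adjusted threshold, also within batches (difference 0.260, exact permutation p = 0.0244, adjusted p = 0.293). Without mt.11944 60% 3, the lowest mutant tumor, the adjusted p was 0.0429, and under the other alternatives it ran up to 0.831. In 80% tumors the mean was 3.32% ± 0.235 (n = 3, exact permutation p = 0.0167 against WT, adjusted p = 0.200), and in 60% tumors 3.15% ± 0.249 (n = 6, exact permutation p = 0.0390, adjusted p = 0.469).

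In all, 0 of the 11 endothelial measures passed the adjusted threshold in any of the 5 comparisons by the exact permutation test. Over the 12 classes for which each tumor had at least 5 cells, the share of the 132 class measures past it was 0.0% for all mutant against WT and for 60% against WT, 5.3% for 80% against WT, 5.3% for 80% against 60% and 0.0% for mt.12436 60% against mt.11944 60%. At an unadjusted p under 0.05 the endothelial count was 1, 1, 2, 3 and 0 of 11 in that order, against 0.758, 2.27, 9.85, 10.6 and 0.0% of all class measures. For mt.12436 60% against mt.11944 60% these counts were fixed at 0 beforehand, since no p under 0.1 was possible. The class measures past the adjusted threshold at 80% were all lower mitochondrial percentages, in CD4 and CD8 T cells, other T cells, dendritic cells, macrophages, monocytes and NK cells. The endothelial mitochondrial percent showed no such call.

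Within the same tumors, endothelial cells were set against fibroblast-labelled cells, cancer cells and macrophages in the 11 measures, by an exact sign-flip permutation test over the 16 tumors adjusted over all 33 comparisons. Because classes were named from the expression of the same cells, these tests are not independent of the class and describe how steady the differences were over tumors. Of the 11 measures, 9 (81.8%) passed against fibroblast-labelled cells, 6 (54.5%) against cancer cells and 4 (36.4%) against macrophages.

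Endothelial cells differed most plainly from fibroblast-labelled cells in ribosomal content. The ribosomal percent was 12.6 ± 2.83 in endothelial and 24.6 ± 4.35 in fibroblast-labelled cells (lower in 16 of 16 tumors, adjusted p = 0.000144). The epithelial score was 1.42 ± 0.575 in endothelial and 3.42 ± 0.815 in fibroblast-labelled cells, again lower in 16 of 16. Endothelial cells had more genes, 1936 ± 537 against 1367 ± 395 (higher in 13 of 16, adjusted p = 0.00187), whereas UMIs missed the threshold (3840 ± 1594 against 4312 ± 1882, adjusted p = 0.368). Among cells with at least 1000 genes, UMIs were lower in endothelial cells (5272 against 7004, lower in 13 of 16 tumors, adjusted p = 0.00175), and among diploid-called cells the difference had the opposite sign (696 higher, adjusted p = 0.137). In endothelial cells 36.6% ± 14.9 were called S or G2M and 17.2% ± 24.3 aneuploid, in fibroblast-labelled cells 63.2% ± 10.6 and 39.7% ± 24.6 (lower in 15 and 14 of 16 tumors).

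The mitochondrial percent of endothelial cells was 0.990 ± 0.339, against 0.716 ± 0.209 in fibroblast-labelled cells (higher in 12 of 16, adjusted p = 0.0280) and 0.708 ± 0.107 in macrophages (higher in 15 of 16, adjusted p = 0.000336). The call against fibroblast-labelled cells was lost without WT 5, WT 6 or WT 7 (adjusted p up to 0.0527) and among diploid-called cells, where the difference was 0.299 percentage points against 0.275 as reported (adjusted p = 0.141). Against macrophages, the phagocytes that were the third largest class, the number of genes missed the threshold (1936 ± 537 in endothelial cells and 1844 ± 450 in macrophages, adjusted p = 0.530), as did the ribosomal percent (12.6 ± 2.83 and 12.1 ± 1.59, adjusted p = 0.403). The gene call was gained among cells with at least 1000 genes (2378 in endothelial cells and 1998 in macrophages, higher in 13 of 16, adjusted p = 0.00438) and with means over cells (2128 and 1881, adjusted p = 0.0314). The epithelial score was 1.42 ± 0.575 in endothelial cells and 1.02 ± 0.422 in macrophages (higher in 12 of 16, adjusted p = 0.0324). That call was lost among diploid-called cells (difference 0.242, adjusted p = 0.202) and without any 1 of mt.12436 80% 2, mt.12436 80% 3, mt.11944 60% 2, WT 3, WT 4, WT 6 or WT 7 (adjusted p up to 0.0594). The dissociation percent was 3.09 ± 0.242 in endothelial cells and 3.38 ± 0.316 in macrophages (lower in 14 of 16, adjusted p = 0.00369). Among cells of 5000 to 15000 UMIs, in the 15 tumors with at least 3 such cells of both classes, the dissociation difference had the opposite sign. It was 3.25% in endothelial cells and 3.04% in macrophages (sign-flip adjusted p = 0.152). Among cells with at least 1000 genes it was -0.145 percentage points and the call was lost (adjusted p = 0.250).

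Against cancer cells, endothelial cells had fewer UMIs (3840 ± 1594 and 13845 ± 4345), a lower ribosomal percent (12.6 ± 2.83 and 24.2 ± 1.65) and a lower dissociation percent (3.09 ± 0.242 and 3.61 ± 0.304, lower in 15 of 16 tumors, adjusted p = 0.000252). Ribosomal percent and UMIs were lower in 16 of 16 tumors. The epithelial score and the aneuploid call had been used to tell malignant cells apart, so their differences from cancer cells follow from that choice. The percent in S or G2M, 36.6 ± 14.9 in endothelial and 36.4 ± 4.38 in cancer cells, did not differ beyond the spread (adjusted p = 0.949). Among cells of 5000 to 15000 UMIs, in tumors with at least 3 such cells of both classes, it was 34.9% in endothelial and 22.5% in cancer cells (higher in 12 of 15 tumors, sign-flip adjusted p = 0.0565). There the S score was 0.0416 and the G2M score 0.0921 higher in endothelial cells (sign-flip adjusted p = 0.0247 and 0.0149). Over all cells neither score passed (sign-flip adjusted p = 0.146 and 0.851).

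**Figure D5:**
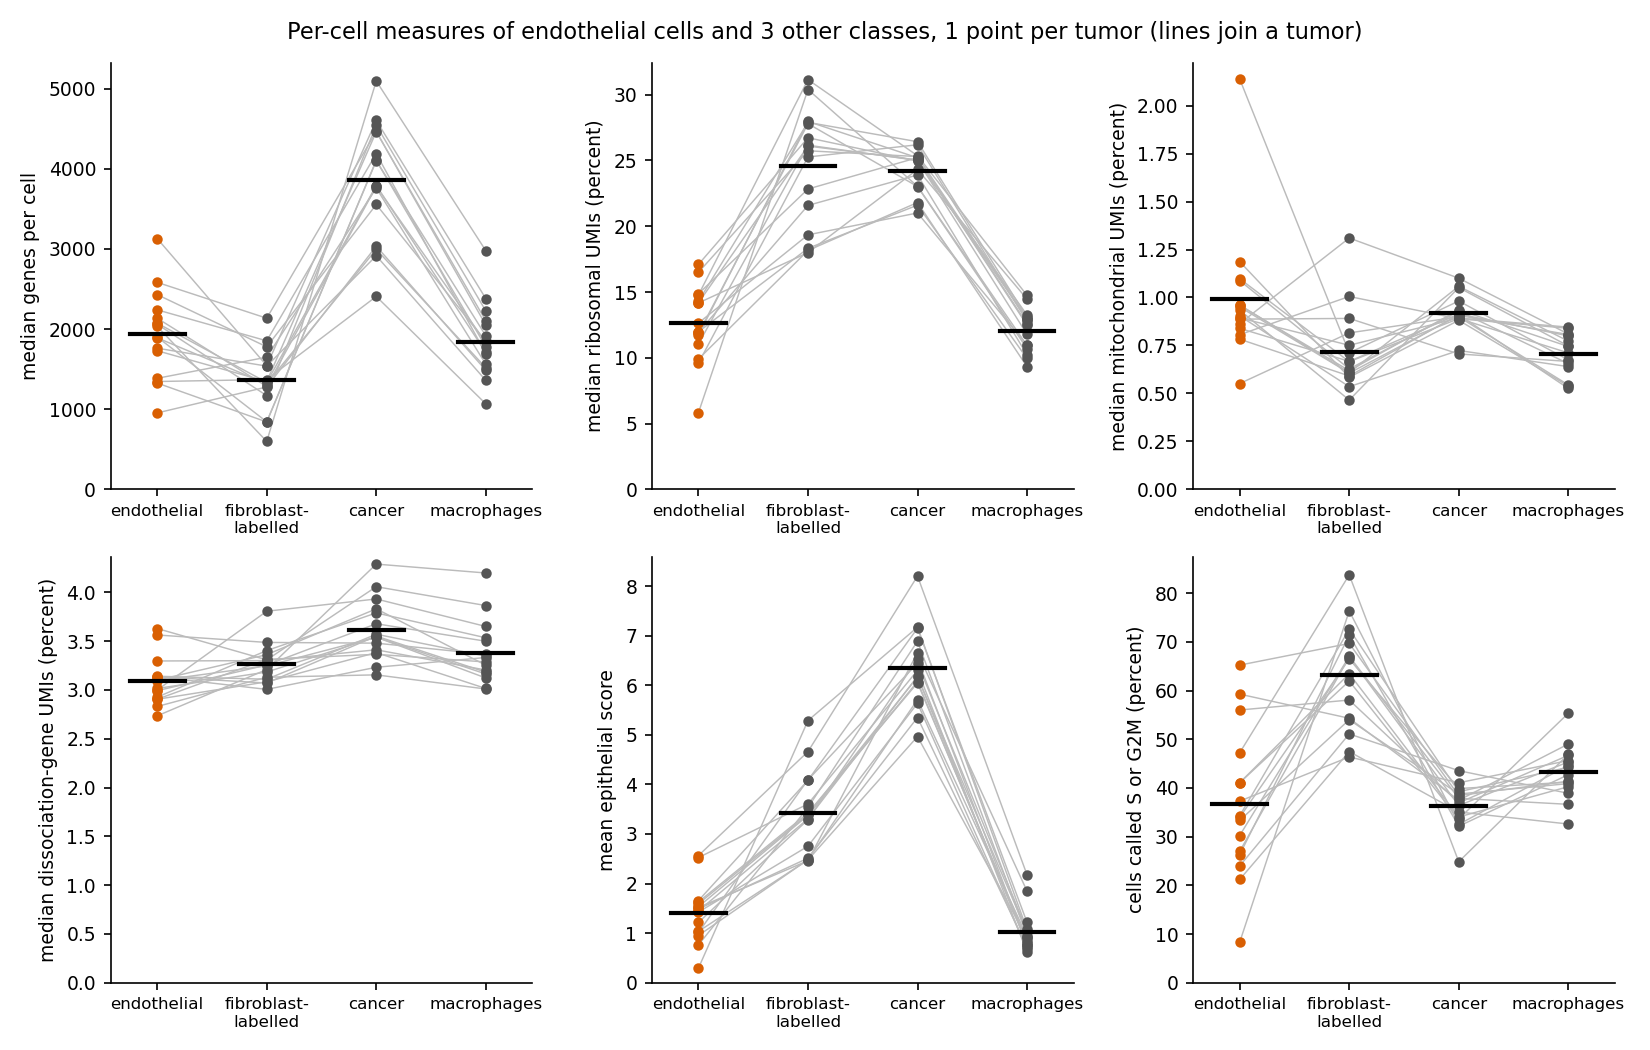
Per-cell measures of endothelial cells, fibroblast-labelled cells, cancer cells and macrophages, with 1 point per tumor, a thin line joining the values of 1 tumor and a black bar for the mean over 16 tumors. Endothelial cells lie beside macrophages in genes (means 1936 and 1844) and ribosomal percent (12.6 and 12.1), and below fibroblast-labelled cells (24.6) and cancer cells (24.2) in ribosomal percent in all 16 tumors.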

How the data were processed

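The authors sorted live cells from dissociated tumors, aligned reads to GRCm39 with Cell Ranger, filtered and clustered cells in Seurat, joined libraries with Harmony and called ploidy with CopyKAT. Classes were named at first with scType, compared by clustifyr with a reference of sorted mouse immune cells, and adjusted by hand from marker genes. The marker genes that the paper lists for this include none for endothelial cells. Their limits were at least 500 genes, at most 37000 UMIs and at most 5% mitochondrial UMIs per cell, and 0 of the deposited cells break them. The UMI and gene counts per cell are raw as deposited by the authors. The percent of UMIs from mitochondrial, ribosomal and dissociation genes was computed by the authors, from ribosomal and dissociation lists not given in the sources used here. The deposited doublet value is a fraction from 0 to 1. The deposited S, G2M and epithelial score is each on a scale known only from its values. Cells could not be thinned to a common depth, since the table holds no counts per gene.

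Groups came from the sample labels and batches from the table. UMIs summed over cells ranged from 54652952 to 131121046 per tumor. Each tumor gave 1 value per class and measure, a median over cells, a mean for the S, G2M and epithelial scores, or a percent of cells. Class shares were tested by exact permutation over all splits of tumors, within batches with weights from group sizes, and intervals came from inverting the test. The p-values measure the spread between tumors. Benjamini-Hochberg adjustment ran over 15 classes (14 for non-malignant shares, 12 for measures), with a threshold of 0.05. Correlations used 100000 permutations. Alternatives were other denominators, the arcsine square root, the centered log ratio after adding 0.5, medians, at least 1000 genes, tumors with at least 20 endothelial cells, a replicate block, leaving out each tumor, edgeR on cell counts, and cells of 5000 to 15000 UMIs. A tumor entered this last setting only with at least 3 such cells of both classes compared. Diploid-called cells alone, shares of all cells in the correlations, and the effects of the 60% groups without each same-batch WT tumor, were added after the data were seen. The members and lists were chosen with earlier results of these data known. No gene was named with a value, since the table holds none. Tests were checked on simulated data. The software was edgeR 4.0.16 in R 4.3.3, and scipy 1.17.1, pandas 2.3.3, numpy 2.4.6 and matplotlib 3.10.9 in Python 3.11.15.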

Additional observations from a re-analysis of the deposited data

Results flagged for a closer look

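Among the 7 WT tumors, 13 endothelial values per tumor were screened for a tumor far from the others. A value was marked where its gap to the next, divided by the range, exceeded 0.568. For normally distributed values chance alone would mark about 1 in 20. The doublet score and the aneuploid percent are bounded at 0, so that rate need not hold for them. Of these 13 values, 3 were marked. In WT 4, 73.2% of endothelial cells were called aneuploid, with 10.2% in the next WT tumor. The same tumor had the highest median depth of endothelial cells, 8026.5 UMIs, and 63.8% aneuploid calls among fibroblast-labelled cells. The part of either in the endothelial calls was not tested.

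In WT 5 the median mitochondrial percent of endothelial cells was 2.14, with 1.098 in the next WT tumor, from 12 cells. In WT 6 the median doublet score of endothelial cells was 0.0742, with 0.0230 in the next WT tumor, from 19 cells.

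The ribosomal percent of endothelial cells moved in opposite directions in the 60% groups when each was set against the WT mean of its own batch. All 3 mt.12436 60% tumors lay above theirs and all 3 mt.11944 60% tumors below theirs, with mean effects of 1.63 and -1.97 percentage points. The opposite directions rested on WT 5, with its 12 cells at 5.83%. Without it the mt.12436 60% effect was -0.388, with 2 of 3 tumors above the WT mean. The difference between the effects was 3.61 percentage points, and its own exact permutation test within batches did not pass (p = 0.145, adjusted p = 0.58).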

How the results depend on the processing

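Endothelial cells passed no adjusted test between tumor groups, and no alternative in the share comparisons changed that. The direction of the share of all cells, as a fold, did change. For all mutant against WT it was 1.13 as a share of fibroblasts and endothelial cells together and 1.08 as a centered log ratio. For 60% against WT it was 1.13 and 1.08 under these, 1.01 with edgeR and TMM scaling, 1.01 with the arcsine square root and 1.21 without aneuploid-called cells outside the cancer class (1.09 of non-malignant cells), a setting that also moved 80% against 60% to 0.331 and 80% against WT to 0.399 (0.418 and 0.456 of non-malignant cells). For 80% against WT it was 1.11, 1.09 and, within batches, 1.12 (1.57 of non-malignant cells), and for 80% against 60% it was 1.01 as a centered log ratio. For mt.12436 60% against mt.11944 60% it was 0.855 as a share of non-malignant cells without neutrophils, 0.701 as a centered log ratio and 0.666 with TMM scaling. With the tumors left out in turn the fold of the share of all cells ran from 0.750 to 1.01, 0.853 to 1.15, 0.541 to 0.732, 0.563 to 0.691 and 0.882 to 1.31 in these 5 comparisons, and that of non-malignant cells from 0.730 to 0.967, 0.783 to 1.04, 0.616 to 0.825, 0.692 to 0.849 and 0.695 to 0.981. The difference between the effects of the mutations ran from -0.189 to 0.196 percentage points. The causes were not tested.

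For all mutant against WT, median UMIs turned to 88.6 higher in cells of at least 1000 genes and 238 higher in diploid-called cells, and median genes to 3.96 and 105 higher. With 1 tumor left out, UMIs ran from -790 to 212, genes from -217 to 84.0 and the aneuploid percent from -0.759 to 14.5. The aneuploid percent turned to -1.10 with medians over tumors, -0.635 within batches and -0.0529 in tumors with at least 20 endothelial cells. The count of measures past the threshold ran from 0 to 1 (without mt.11944 60% 3, the dissociation percent) and stayed 0 in the other leave-one-out sets. The count of class-pair calls ran from 15 to 22 of 33 with 1 tumor left out and over all 20 alternatives from 14 (of 30 tests, in diploid-called cells) to 24. The relations of endothelial share with other classes past the threshold were 2, with mast cells and fibroblast-labelled cells, when all shares were of all cells, and mast cells then came first by rank (rho 0.791 against 0.697). The dissociation percent was 0.209 higher in endothelial cells than in macrophages at 5000 to 15000 UMIs. Against fibroblast-labelled cells the dissociation percent and the S score lost their call in 11 and 13 of 20 alternatives and the mitochondrial percent in 4, and the epithelial score against macrophages lost it in 9.

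The deviations of same-numbered tumors had a correlation over 0.1 in 5 of 18 pairs (range -0.403 to 0.660). The main tests did not pair tumors by number, and this check cannot exclude a pairing. With a replicate block over numbers 1 to 3, median UMIs were 613 and median genes 288 higher in mutant tumors, and the share of all cells was 0.808 times WT with no call. The share of non-malignant cells was 0.260 percentage points lower in mutant tumors (permutation within blocks p = 0.0469, adjusted p = 0.292). WT 1 to 3 were all of the first batch, whereas the mutant tumors came from 3 batches. Few endothelial cells per tumor, 12 to 72, limit every value.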

Other observations

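The phase calls of endothelial cells went with their ribosomal content. Pooled over tumors, the median ribosomal percent was 15.2 in the 127 cells called S, 15.3 in the 113 called G2M and 11.3 in the 403 called G1. Median depth was 3632, 3617 and 4011 UMIs in S, G2M and G1, and the mitochondrial percent was 0.766, 0.812 and 1.01. Near medians do not show that depth was alike. Calls of S or G2M were more frequent under 1000 genes (50%) and from 3000 genes (47.4%) than in between (31.3 and 23.9%). The median ribosomal percent was likewise highest under 1000 genes and next highest from 3000 genes. The part of depth in the relation of phase calls and ribosomal content was not tested. Cells are not replicates, so these are descriptions without a test.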
